A study of Homo sapiens with 6 samples.

Results

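The members were the genes of the BCL9, pygopus and beta-catenin transcription complex, taken as every probe set of the deposited table whose annotation named 1 of 10 genes and no other. The genes were BCL9, BCL9L, PYGO1, PYGO2, CTNNB1, CTNNBIP1, CDC73, CREBBP, EP300 and SMARCA4, and they had 30 of the 54613 probe sets that are not array controls. Every probe set was read, so that a gene was not reduced to its brightest one. RNA came from DLD1, an established human colorectal adenocarcinoma line known to carry truncated APC. In 3 cultures the cells received 10 µM SAH-BCL9B for 12 h, and in 3 control cultures they received the vehicle, DMSO, for 12 h. SAH-BCL9B is a hydrocarbon-stapled peptide modelled on the helix of BCL9 that binds beta-catenin. No array of a control peptide was analysed here, so a response to any stapled peptide and a response to this one cannot be told apart. Each culture gave 1 Affymetrix Human Genome U133 Plus 2.0 array, and every n below is 3 arrays per group.

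When Wnt signalling stops the APC destruction complex from degrading beta-catenin, or when APC is truncated, beta-catenin accumulates in the nucleus and binds TCF/LEF factors on target genes. There BCL9 or its paralog BCL9L bridges beta-catenin to a pygopus protein, whose PHD finger reads methylated histone H3. Other surfaces of beta-catenin recruit the acetyltransferases CREBBP and EP300, the chromatin remodeller SMARCA4 and CDC73 of the PAF1 complex, while CTNNBIP1, also called ICAT, blocks the binding of TCF. The arrays measured the transcripts of these proteins, not the proteins or their binding to each other.

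None of the 30 probe sets passed the test between SAH-BCL9B and vehicle, against 2.5% of all probe sets (limma, Benjamini-Hochberg adjusted p under 0.05; 1363 of 54613). Of all probe sets 1.12% passed upward and 1.37% downward. The lowest adjusted p among the members was 0.129, for a probe set of CTNNB1. At an unadjusted p under 0.05 there were 3 member probe sets, 10% of them, against 15.4% of all probe sets. The 3 SAH-BCL9B arrays lay entirely above or below the 3 vehicle arrays in 4 member probe sets (13.3%), against 22% of all probe sets. The log2 changes of the members ran from -0.32 to 0.41 with a median of 0.01, and 16 were positive and 14 negative. Their median absolute log2 change was 0.1, beside 0.11 for all probe sets. In 26 of the 30 the moderated 95% interval of the change lay within 1.5-fold in either direction, and in 29 within 2-fold. The 26 include the 7 that lay below the array median in all 6 arrays, where a change of the transcript can be understated. A change that missed the threshold is not thereby shown to be absent.

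The array of SAH-BCL9B 2 stood apart from the other 5. Its correlation with them over all probe sets was 0.987 to 0.991, while each other array reached at least 0.995 with another. The difference between the 3' and 5' control probe sets of ACTB, a measure of RNA quality, was 0.74 on the log2 scale in SAH-BCL9B 2. It was 1.20 to 1.38 in the others. The same difference for GAPDH did not set SAH-BCL9B 2 apart, at 0.14 against 0.09 to 0.17 in the others. SAH-BCL9B 2 was the highest or lowest of the 6 arrays in 20 of the 30 member probe sets (66.7%), against 47.9% of all probe sets. Without that array 0 of the 30 member probe sets passed, beside 1478 of all 54613. Without it and vehicle 3 the counts were 0 of 30 and 836 of 54613. The lowest limma adjusted p of the members was 0.154 and 0.177 in these fits. All 9 markers of colorectal epithelium, EPCAM and CDH1 among them, lay above the array median in all 6 arrays, and 2 of the 9 passed the test. VIL1 fell by 0.86 and KRT8 rose by 0.50 on the log2 scale (limma adjusted p = 0.00989 and 0.0305). Of 3 leukocyte, 4 fibroblast and 3 endothelial markers, 1, 2 and 2 lay below it in all 6 arrays, and COL1A1 and PECAM1 above it in all 6.

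**Figure D1:**
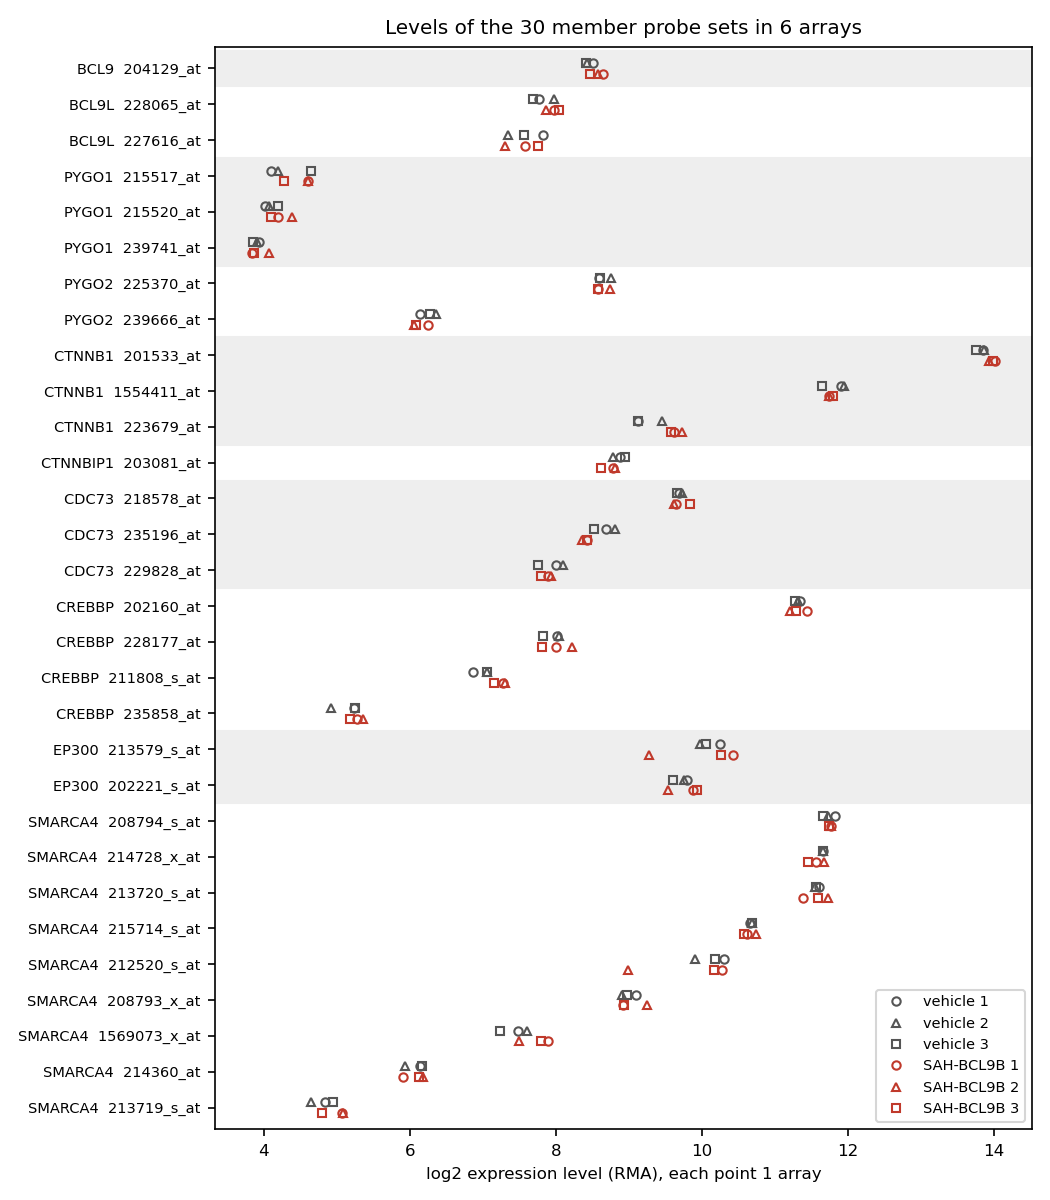
Log2 expression level (x axis) of the 30 member probe sets (rows, shaded by gene) in the 3 vehicle arrays (grey) and the 3 SAH-BCL9B arrays (red), 1 point per array. The levels of different probe sets depend on their probes and are not compared. The groups overlap in all rows but 4, and the triangle of SAH-BCL9B 2 lies far to the left in 1 row each of EP300 and SMARCA4.

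BCL9, the adaptor whose helix the peptide copies, had 1 probe set, 204129_at. Its log2 level was 8.51, 8.43 and 8.41 in the vehicle arrays and 8.65, 8.58 and 8.46 in the SAH-BCL9B arrays. The groups overlapped, because SAH-BCL9B 3 lay below vehicle 1. The log2 change was 0.11 ± 0.09 (SE, limma adjusted p = 0.66), with a 95% interval of -0.09 to 0.31, so a change beyond 1.5-fold in either direction lay outside the interval. The paralog BCL9L had 2 probe sets with changes of opposite sign. In 228065_at the vehicle arrays read 7.77, 7.98 and 7.69 and the SAH-BCL9B arrays 7.97, 7.87 and 8.04. In 227616_at they read 7.82, 7.35 and 7.56 against 7.57, 7.30 and 7.75. Both pairs of groups overlapped, and the changes were 0.15 ± 0.10 and -0.04 ± 0.16 (SE, limma adjusted p = 0.606 and 0.956). The direction of the second was positive without SAH-BCL9B 2 and vehicle 3, at 0.07.

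The pygopus genes encode the readers of histone H3 at the end of the chain. PYGO1 was dim in all of its 3 probe sets, which lay below the array median in all 6 arrays. In the brightest of them, 215517_at, the vehicle arrays read 4.10, 4.20 and 4.65 and the SAH-BCL9B arrays 4.60, 4.60 and 4.27. The changes of the 3 ran from 0.02 to 0.18 (lowest limma adjusted p = 0.638). Signal over background is unknown, and at such levels a change of the transcript can be understated. PYGO2 was read well above the array median by 225370_at, at 8.59, 8.76 and 8.60 in vehicle and 8.57, 8.74 and 8.57 in SAH-BCL9B. These values almost coincide, and the change was -0.02 ± 0.10 (SE, 95% interval -0.24 to 0.20). The other PYGO2 probe set, 239666_at, lay below the array median and had a change of -0.13 ± 0.10 (limma adjusted p = 0.635).

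CTNNB1, which encodes beta-catenin itself, held the member probe set nearest to the threshold. In 223679_at the log2 level was 9.13, 9.45 and 9.12 in vehicle and 9.62, 9.73 and 9.57 in SAH-BCL9B. All 3 SAH-BCL9B arrays were above all 3 vehicle arrays, and vehicle 2 was the nearest of these. The change was 0.41 ± 0.11 (SE, 95% interval 0.14 to 0.67) and did not pass (limma adjusted p = 0.129, range 0.056 to 0.392 over the alternatives). In the brightest probe set, 201533_at, the arrays read 13.85, 13.86 and 13.75 against 14.01, 13.93 and 13.98. The groups were again apart, with a smaller change of 0.15 ± 0.08 (SE, limma adjusted p = 0.461). The third, 1554411_at, read 11.90, 11.94 and 11.64 against 11.74, 11.74 and 11.80. There the groups overlapped and the change was -0.07 ± 0.10 (SE, limma adjusted p = 0.852). Between the probe sets 223679_at and 1554411_at the difference within an array was -2.77 to -2.49 in vehicle and -2.23 to -2.01 in SAH-BCL9B. This pair was picked for its difference, and the values describe it without a test. The mean of the 3 probe sets gave 0.16 ± 0.08 (SE, limma adjusted p = 0.35 over genes).

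**Figure D2:**
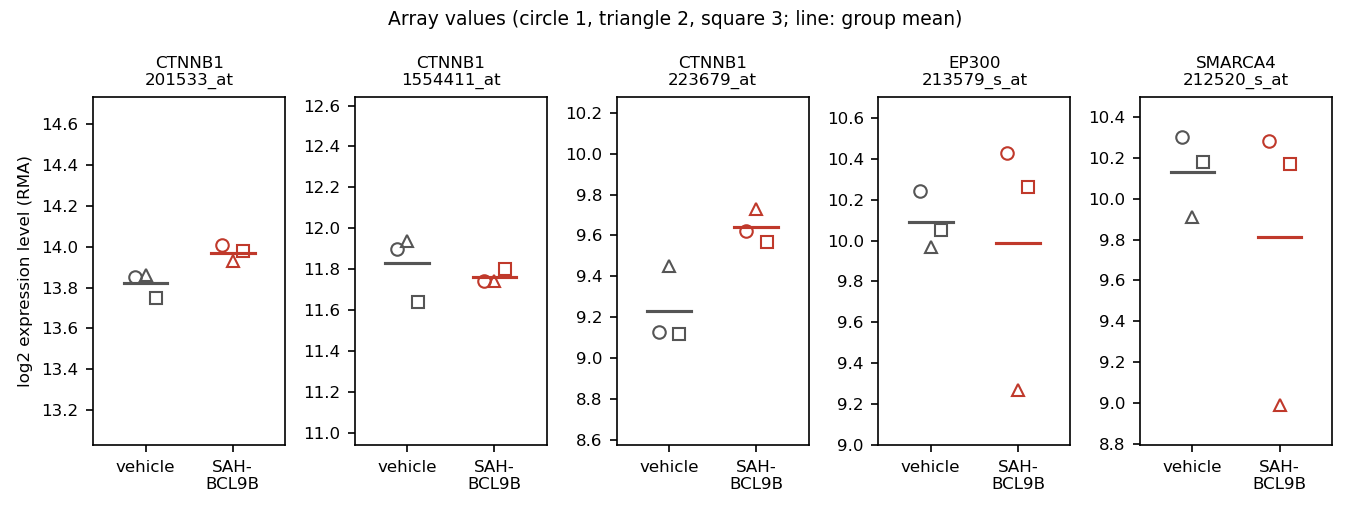
Log2 expression level (y axis, the same span in every panel) of the 3 CTNNB1 probe sets and of 1 probe set each of EP300 and SMARCA4, by group (x axis), with 1 symbol per array (circle 1, triangle 2, square 3) and a line at the group mean. CTNNB1 223679_at and 201533_at show no overlap of the groups, and in EP300 213579_s_at and SMARCA4 212520_s_at the triangle of SAH-BCL9B 2 lies at 9.27 and 8.99, below the other 5 arrays.

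CTNNBIP1, the inhibitor that competes with TCF for beta-catenin, had 1 probe set, 203081_at. It read 8.88, 8.78 and 8.94 in vehicle and 8.78, 8.81 and 8.61 in SAH-BCL9B. The groups overlapped, and the change was -0.14 ± 0.10 (SE, limma adjusted p = 0.602, 95% interval -0.36 to 0.09).

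CDC73, or parafibromin, links beta-catenin to the PAF1 complex and so to transcript elongation. Of its 3 probe sets 235196_at was lower in every SAH-BCL9B array, with 8.68, 8.81 and 8.52 in vehicle and 8.43, 8.36 and 8.42 in SAH-BCL9B. The change was -0.26 ± 0.10 (SE, 95% interval -0.49 to -0.04) and did not pass (limma adjusted p = 0.246). The brightest CDC73 probe set, 218578_at, read 9.68, 9.73 and 9.66 against 9.65, 9.61 and 9.83, a change of 0.01 ± 0.09. The other, 229828_at, had -0.07 ± 0.11, with overlapping groups.

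CREBBP and EP300 encode paralogous histone acetyltransferases. The brightest CREBBP probe set, 202160_at, read 11.34, 11.32 and 11.28 in vehicle and 11.44, 11.21 and 11.29 in SAH-BCL9B. Its change was 0.00 ± 0.09 (SE, 95% interval -0.21 to 0.21). In 211808_s_at the groups did not overlap, with 6.86, 7.06 and 7.06 against 7.27, 7.30 and 7.15. That change was 0.24 ± 0.10 and did not pass (SE, limma adjusted p = 0.275). The other 2 CREBBP probe sets overlapped between groups, with changes of 0.05 and 0.14, and the dimmer of them, 235858_at, lay below the array median in all arrays.

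EP300 was read by 2 probe sets, both with an s in the name, which marks probes shared between transcripts. In 213579_s_at the vehicle arrays read 10.24, 9.97 and 10.05 and the SAH-BCL9B arrays 10.43, 9.27 and 10.26. SAH-BCL9B 2 lay 0.70 below the lowest of the other 5 arrays, while SAH-BCL9B 1 and 3 lay above all vehicle arrays. The change was -0.10 ± 0.28 (SE, limma adjusted p = 0.929) and without SAH-BCL9B 2 it was 0.26. In 202221_s_at SAH-BCL9B 2 was also the lowest array, at 9.53, with 9.79, 9.75 and 9.60 in vehicle and 9.88 and 9.93 in SAH-BCL9B 1 and 3. That change was 0.07 ± 0.13 (SE, limma adjusted p = 0.889). The part of the ACTB difference of SAH-BCL9B 2 in these values was not tested.

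SMARCA4, also called BRG1, encodes the ATPase of SWI/SNF remodelling complexes and had 9 probe sets, 8 of them with an s or x in the name, where x marks probes that may cross-hybridise. In the brightest, 208794_s_at, the vehicle arrays read 11.82, 11.72 and 11.66 and the SAH-BCL9B arrays 11.77, 11.77 and 11.74. The groups overlapped, and the change was 0.03 ± 0.08 (SE, 95% interval -0.17 to 0.22). The probe set 212520_s_at had the lowest change of all members, -0.32 ± 0.32 (SE, limma adjusted p = 0.75). Its arrays read 10.30, 9.91 and 10.18 in vehicle and 10.28, 8.99 and 10.17 in SAH-BCL9B. SAH-BCL9B 2 alone lay below the vehicle arrays, by 0.92 from the next array, and the change without it was 0.10. At the other end 1569073_x_at had 0.28 ± 0.14 (SE, limma adjusted p = 0.417), with 7.48, 7.61 and 7.24 against 7.89, 7.49 and 7.79. The other 6 had changes from -0.10 in 214728_x_at to 0.17 in 213719_s_at, and 214360_at and 213719_s_at lay below the array median in all 6 arrays. The groups overlapped in all 9 SMARCA4 probe sets, 4 changes were positive and 5 negative, and the mean of the 9 gave 0.01 ± 0.07.

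**Figure D3:**
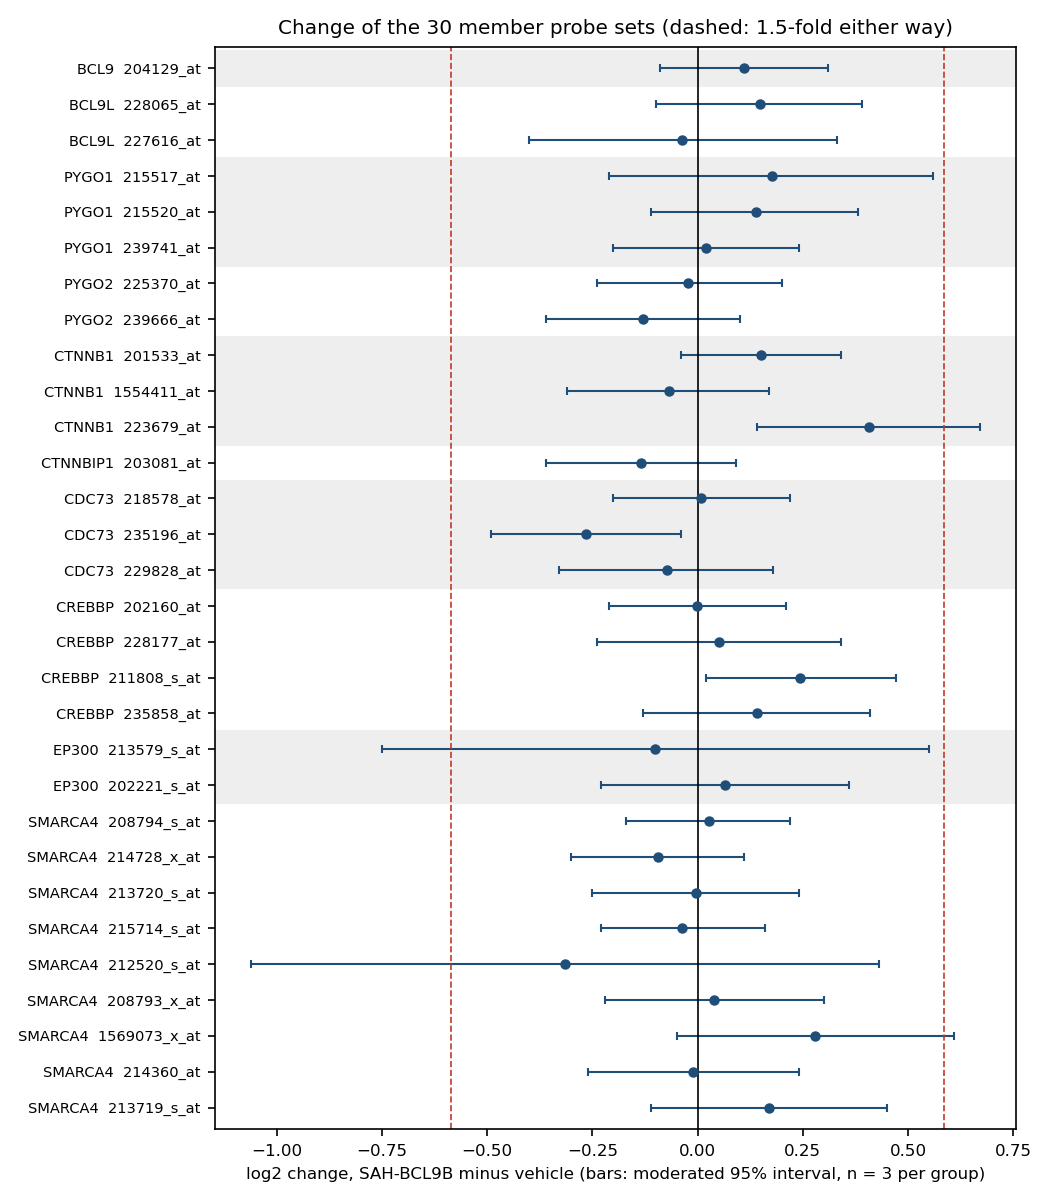
Log2 change of each member probe set, SAH-BCL9B minus vehicle (x axis), with its moderated 95% interval (bar, n = 3 per group) and dashed lines at 1.5-fold in either direction. The widest intervals belong to SMARCA4 212520_s_at (-1.06 to 0.43) and EP300 213579_s_at (-0.75 to 0.55), and the point farthest right is CTNNB1 223679_at at 0.41.

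Paralogs were compared by the mean of each gene's probe sets in every array. The change of BCL9 minus that of BCL9L was 0.05 on the log2 scale, that of PYGO1 minus PYGO2 was 0.19 and that of CREBBP minus EP300 was 0.13. In an exact two-sided permutation test over the 6 arrays these gave p = 0.80, 0.20 and 1, and 1, 0.60 and 1 adjusted over the 3 pairs. With 3 arrays against 3 the smallest p this permutation test can give is 0.10, so it could not pass 0.05 whatever the values, and these p-values do not show that paralogs changed alike. Without SAH-BCL9B 2 the difference was -0.04 for BCL9 and BCL9L and -0.15 for CREBBP and EP300.

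The genes whose values over the 6 arrays ran closest to a member were sought among 19774 other genes, each by its brightest probe set and centred on its own mean. For BCL9 they were RNF121, CCNY and NCLN, with a root mean square difference of 0.015 to 0.019 on the log2 scale. For BCL9L they were MAP3K9, PSMF1 and E2F6 (0.019 to 0.026). For CTNNB1 and its probe set 201533_at they were PICALM, CCNK and SEPTIN8 (0.015 to 0.018). With so many genes and 6 arrays such closeness is a description only.

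Start-site windows from RefSeq (GRCh38.p14, 250 bases before to 50 after the start) were given for 8 of the 10 genes, 11 windows in all. BCL9L and CDC73 had none. The TCF motif CTTTGAT or its reverse complement ATCAAAG occurred in 0 of the 11 member windows and in 2.62% of all 35116 windows. Its core, CTTTG or CAAAG, which the longer motif contains, occurred in 1 of the 11 and in 47.5% of all windows. The median GC content was 74.7% in the member windows and 58.7% in all windows. The single match is shown because it lies in BCL9, with the core in capitals. It is on the plus strand at chr1:147541534-147541550, at the downstream end of its window. The bases that would complete the longer motif there lie outside the window, so the count of 0 does not cover them.
BCL9: ccccctaagttgCTTTG
These counts say only which letters lie in these windows.

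Around the members, 7 pathway lists held 245 probe sets of 74 measured genes. Of the 245, 15 passed the test, 1 upward and 14 downward (6.12%, against 2.5% of all probe sets). The list of Wnt target genes held 10 of the 15, so the pooled share does not describe the other lists. Among the 38 probe sets of TCF/LEF factors and corepressors, 1 passed upward and 1 downward (5.26%, against 2.5% of all probe sets). Their median log2 change was -0.09, with 26 negative. TLE4, a Groucho corepressor that TCF factors bind in place of beta-catenin, rose in 214688_at. It read 6.68, 6.85 and 6.65 in vehicle and 7.39, 7.30 and 7.39 in SAH-BCL9B, a change of 0.63 ± 0.09 (SE, limma adjusted p = 0.0195). All 5 TLE4 probe sets had a positive change, and 1 of them passed. TCF7L2, the main TCF factor of intestinal epithelium, fell in 216037_x_at, from 11.44, 11.41 and 11.46 to 10.97, 10.89 and 11.06. The change was -0.46 ± 0.08 (SE, limma adjusted p = 0.0378), and all 7 of its probe sets were negative, with 1 that passed. The TLE4 call was lost when any array other than SAH-BCL9B 2 was dropped (limma adjusted p = 0.0605 to 0.113), and that of TCF7L2 when any of the 6 was dropped (0.0563 to 0.176).

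Of 53 probe sets of other nuclear coactivators and Mediator, 34 had a negative change. Of the 53, 2 passed downward and none upward (3.77%, against 2.5% of all probe sets). Both belonged to the paralogs TBL1X and TBL1XR1, whose products exchange corepressors for coactivators and are known to bind beta-catenin. TBL1X fell in 213400_s_at, from 11.29, 11.23 and 11.22 to 10.80, 10.72 and 10.71 (change -0.51 ± 0.08, SE, limma adjusted p = 0.0251). TBL1XR1 fell in 221428_s_at, from 10.84, 10.80 and 10.52 to 10.18, 10.16 and 10.12 (change -0.57 ± 0.11, SE, limma adjusted p = 0.0409). In each gene 1 of 6 probe sets passed, and the changes were negative in 6 of 6 for TBL1X and in 5 of 6 for TBL1XR1. The TBL1X call was likewise lost when any array but SAH-BCL9B 2 was dropped (limma adjusted p = 0.0805 to 0.138), and the TBL1XR1 call when any array but vehicle 3 was dropped (0.056 to 0.186).

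No probe set passed among the 11 of the other PAF1 complex subunits (median log2 change 0.17, 1 negative), the 46 of other SWI/SNF subunits (median -0.10, 32 negative) or the 14 of nuclear inhibitors of beta-catenin (median 0.02, 7 negative). The median of all probe sets was 0.01. These probe sets come from 5, 12 and 7 genes, so their signs are not independent, and no shift of a list was tested. Of 41 probe sets of junction and destruction complex partners 1 passed (2.44%, against 2.5% of all probe sets). It was 208866_at of the kinase gene CSNK1A1, which primes beta-catenin for degradation, with -0.66 ± 0.11 (SE, limma adjusted p = 0.0305), while 4 of its 13 probe sets were positive. Its call too was lost when any array but SAH-BCL9B 2 was dropped (limma adjusted p = 0.07 to 0.15). Of 42 probe sets of Wnt target genes 33 had a negative change, with a median of -0.24. Of the 42, 10 passed downward and none upward (23.8%, against 2.5% of all probe sets). The 10 belonged to 4 of the 16 measured genes, with 4 each in VEGFA and CD44 and 1 each in ASCL2 and RNF43. Calls of the same gene are not independent, and the other genes of the list had none. The probe set with the largest fall, VEGFA 210512_s_at, read 12.81, 12.84 and 12.77 in vehicle and 11.85, 11.68 and 11.70 in SAH-BCL9B. Of the 13 CD44 probe sets 10 had a negative change, 4 of which passed, and 3 had a positive change. Among the 10 calls only that of VEGFA 210512_s_at was kept whichever array was dropped. The calls of ASCL2 and RNF43 were lost when any array but SAH-BCL9B 2 was dropped (limma adjusted p = 0.0775 to 0.133 and 0.108 to 0.168), and those of CD44 212014_x_at and 217523_at when any of the 6 was dropped. The targets were listed with earlier results of these arrays known, so their count is no independent evidence of a direction. With vehicle 1, 2 or 3 dropped the count of 15 became 1, 2 or 5, and with SAH-BCL9B 1, 2 or 3 dropped it became 3, 13 or 2.

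**Figure D4:**
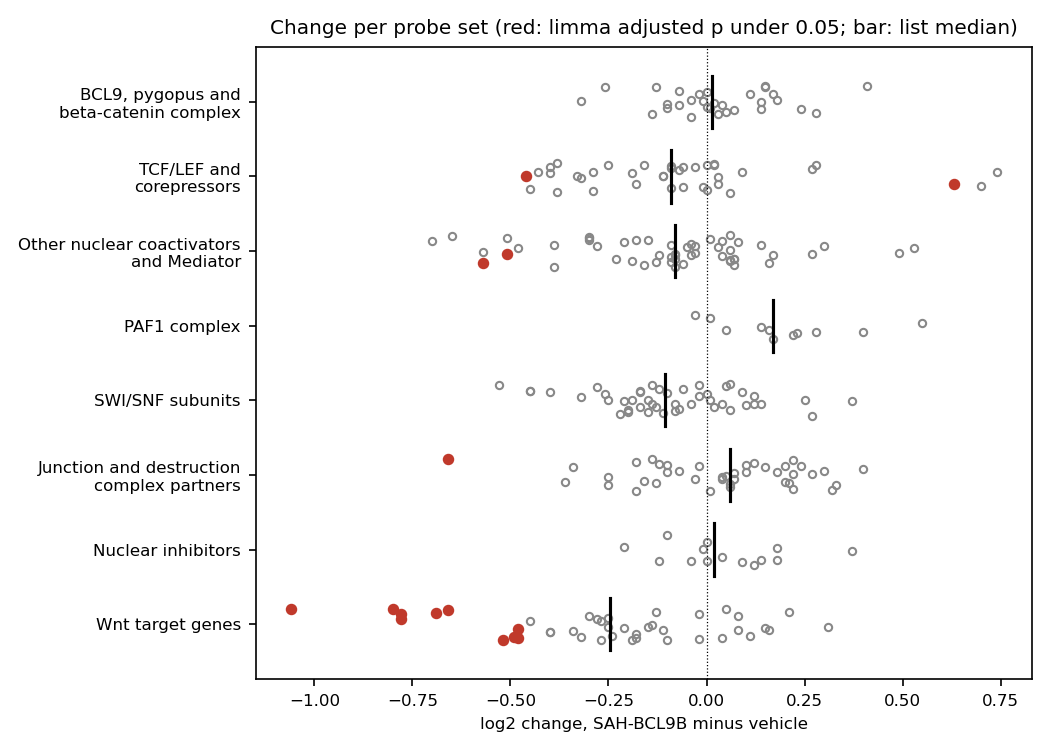
Log2 change per probe set, SAH-BCL9B minus vehicle (x axis), for the members and the 7 pathway lists (rows), with probe sets past a limma adjusted p of 0.05 in red and the median of each row as a bar. The members hold no red point and lie between -0.32 and 0.41, and 10 of the 15 red points stand in the row of Wnt target genes.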

How the data were processed

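Total RNA from 3 SAH-BCL9B and 3 vehicle cultures was labelled with biotin and hybridised, 1 array per culture. The log2 values deposited by the authors covered 54675 probe sets in each of 6 arrays. They were made with RMA and affy, per the submitters' processing notes, and versions are not given in the sources used. The RMA step makes the arrays alike in distribution and shrinks changes of dim probe sets. Scanner files and detection calls were not used. The number of arrays, 3 per group, limits the precision. After removal of 62 controls, 41091 probe sets named 1 gene through GEO's platform annotation, 1801 several and 11721 none. For 41037 the Entrez ID matched RefSeq and 0 symbols changed.

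All 54613 probe sets were fitted in R 4.3.3 by the lmFit and eBayes functions of limma 3.58.1, with group as the only term and 3.6 prior degrees of freedom. The p-values were adjusted over all of them by the Benjamini-Hochberg method, and 0.05 was the threshold. The data.table package (version 1.17.8) handled the files, and figures were drawn with matplotlib 3.10.9 in Python 3.11.15. Errors of changes are moderated SEs. The fit was tested on simulated data. The members, lists and tests were chosen with earlier results of these data known. The rule for named genes took every member probe set and, in each list, genes past the threshold, at most 4, the largest change first. TCF7, CTNND1 and EPHB2 were listed but not analysed here. COL1A1, PECAM1, VIL1 and KRT8 were named after their values were seen. As alternatives the fit was repeated with replicate numbers as blocks, a level filter, other uses of several probe sets, 2 further normalizations, a variance trend, array weights, 2 covariates and arrays left out.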

Additional observations from a re-analysis of the deposited data

How the results depend on the processing

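No member probe set passed under any of 18 alternatives, in which the lowest adjusted p of the members ran from 0.056 to 0.392. The count of all probe sets that passed, 1363, became 171 with the replicate block, 2725 with the filter on the median level, 2923 with a variance trend and robust fit, 2738 with array weights, 2982 with array SD as a covariate and 836 without vehicle 3 and SAH-BCL9B 2. It ran from 97 (without vehicle 1) to 1478 (without SAH-BCL9B 2) with 1 array left out. The 15 probe sets of the pathway lists became 2 with the replicate block, 28 with the filter, 32 with the variance trend, 24 with array weights and 29 with array SD, and 1 to 13 with 1 array left out. Same-numbered arrays had deviations from the group means correlated at 0.41, 0.06 and -0.31. SAH-BCL9B 1, 2 and 3 ran closest to vehicle 1, 3 and 1. Whether the replicate numbers pair the arrays was not tested.

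Signs turned in 15 member probe sets, all uncalled, most with changes near 0, while the other 15 kept theirs in every fit that tested them, CTNNB1 223679_at, CDC73 235196_at, CREBBP 211808_s_at and BCL9 204129_at among them. Array weights gave 0.01 (CREBBP 202160_at), -0.06 (CREBBP 228177_at), -0.04 (SMARCA4 208793_x_at), 0.10 (EP300 213579_s_at), 0.02 (BCL9L 227616_at) and -0.04 (PYGO1 239741_at). For the same 6 in this order, the ACTB covariate gave 0.05, -0.06, -0.06, 0.28, 0.12 and -0.05, and leaving out vehicle 3 and SAH-BCL9B 2 gave 0.03, -0.13, -0.07, 0.24, 0.07 and -0.08. These also gave 0.12 each for SMARCA4 212520_s_at, and the latter -0.01 for 208794_s_at. Array SD as a covariate gave 0.01 (SMARCA4 213720_s_at) and 0.00 (214360_at), and a second quantile normalization -0.01 (CDC73 218578_at). With 1 array left out the ranges were, for CREBBP, -0.07 to 0.05 (202160_at) and -0.06 to 0.15 (228177_at). For EP300 they were -0.32 to 0.26 (213579_s_at) and -0.01 to 0.19 (202221_s_at). For SMARCA4 they were -0.55 to 0.10 (212520_s_at), -0.06 to 0.09 (208793_x_at), -0.01 to 0.07 (208794_s_at), -0.08 to 0.09 (213720_s_at), -0.08 to 0.07 (214360_at) and -0.09 to 0.00 (215714_s_at). They were -0.06 to 0.05 (218578_at) and -0.17 to 0.00 (229828_at) for CDC73, -0.08 to 0.03 for PYGO2 225370_at, -0.15 to 0.09 for BCL9L 227616_at and -0.06 to 0.06 for PYGO1 239741_at. The paralog differences, whose alternatives were chosen after seeing the data, ran from -0.04 to 0.18 for BCL9 minus BCL9L and from -0.15 to 0.28 for CREBBP minus EP300. The cause of these turns was not tested. Signal over background is unknown, which limits the dim PYGO1 probe sets most.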

Other observations

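EP300 213579_s_at and SMARCA4 212520_s_at were the only members in which any array lay at least 0.5 on the log2 scale below the other 5, and in both that array was SAH-BCL9B 2. Over all probe sets SAH-BCL9B 2 was the lowest by that margin in 1431, against 11 to 76 for each of the other arrays, and the highest by that margin in 139, against 13 to 88. The other EP300 probe set and the other 8 of SMARCA4 did not show such a gap.

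In CDC73 the difference between 235196_at and 218578_at within an array was -1.14 to -0.92 in vehicle and -1.41 to -1.22 in SAH-BCL9B. The pair was picked for its difference, which was not tested.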
